A study of Mus musculus with 54 samples.

Results

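The LIN28A+ and LIN28A- segments of testes from postnatal day 21 (P21) Blimp1-Cbfb cKO males were compared within animals, using GeoMx Whole Transcriptome Atlas libraries. The members were chosen by their labels as the libraries of the 6 LIN28A+ and the 6 LIN28A- segments of cKO cross-sections at P21, which are 12 of the 54 libraries of the series. The cKO males carried the transgene Blimp1(Prdm1)-CreTg and were Cbfb fl/fl. The heterozygous controls of the same age, used here as a reference only, carried the same transgene and were Cbfb fl/+, so Cre and at least 1 floxed allele were present in every animal. Each genotype was represented by 2 animals with 3 cross-sections each, and 1 randomly placed circular region per cross-section, with both genotypes on a shared slide, was split by fluorescence into a LIN28A+ DDX4+ and a LIN28A- DDX4+ segment. The sections of an animal are technical replicates, so counts were summed per animal and segment and the animal was the unit of the tests printed here. Blimp1-Cre acts in the germline from before birth and has been described in some somatic tissues, so Cbfb was already a target in the cells that gave rise to both segments. Animal and section were read from the numbers before and after the dot in the labels, which do not themselves say which number is which.

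LIN28A is an RNA-binding protein used as a marker of undifferentiated spermatogonia, the compartment that holds the spermatogonial stem cells and their early progeny. DDX4 is a helicase of germ cells in general, so the LIN28A- DDX4+ segment is meant to hold germ cells that have moved on, namely differentiating spermatogonia, spermatocytes and, from the first wave of spermatogenesis, early spermatids. CBFβ is the partner protein that stabilizes binding of RUNX transcription factors to DNA.

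Each of the 20175 probes carries a photocleavable barcode, and the files name probes by an identifier that starts with RTS. None of the identifiers was found in the gene tables used here (0 matches in each), so no result could be given by gene name. The check of the segments by Lin28a, Ddx4 and other cell type markers, and the check of Cbfb itself, were not made. By rule, at most 2 probes in each direction are named per comparison. The readout tags below, as listed in the configuration files, are shown to identify the probes on which the named results rest. They are barcodes attached to the probes and not the transcript sequences that the probes bind, they are printed 5′ to 3′ as listed, and no base in them is singled out.
RTS0066123: ctaatacgcaca
RTS0070220: tcctcgaagcgc
RTS0067559: aggatacttaga
RTS0075843: ctcttcaccgtt
RTS0068460: atcacctggctt
RTS0068462: tctggtaagaac
The first pair was named as higher and the second pair as lower in LIN28A+ segments of cKO testes. The last pair was named as higher in LIN28A+ segments of controls.

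The LIN28A+ segments were small, shallow and dense in counts. Within the cKO regions they covered 2.43 to 15.0% of the segmented area, with a median of 7.93%. Areas, read from the acquisition files and taken as µm², were 3415 to 13682 for LIN28A+ and 77351 to 136932 for LIN28A- segments. The total count per library was 160230 to 837610 in the 6 LIN28A+ libraries (median 444582) and 2096394 to 3672859 in the 6 LIN28A- libraries (median 2823105). A probe had a median count of 6 to 35 in LIN28A+ libraries and of 83 to 152 in LIN28A- libraries. Sampling noise was therefore relatively larger in LIN28A+ libraries. Reads per counted molecule were 12.3 to 17.0 in LIN28A+ and 13.5 to 16.9 in LIN28A- libraries, and these ranges overlapped.

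Counts per area were higher in the LIN28A+ than in the LIN28A- segment in 6 of 6 cKO sections. Sections 1.1, 1.2 and 1.3 (animal and section) had 46.9, 38.3 and 53.8 counts per µm² in LIN28A+ segments, against 20.1, 27.3 and 23.8 in LIN28A- segments. Sections 2.1, 2.2 and 2.3 had 61.2, 51.0 and 46.7 counts per µm² in LIN28A+ segments, against 43.9, 37.2 and 24.5 in LIN28A- segments. The ratio within a section was 1.37 to 2.33 with a median of 1.65, and no section of either animal lay below 1. The highest LIN28A- density, in section 2.1, exceeded the lowest LIN28A+ density, in section 1.2, so the groups overlapped although every pair pointed one way. In controls the ratio was 0.980 to 2.48 with a median of 1.57, and it was above 1 in 5 of 6 sections. With 2 animals a two-sided exact permutation test within animals cannot give a p below 0.5, so none is printed. In segments of bulk tissue, more cells per area and more RNA per cell cannot be told apart.

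**Figure D1:**
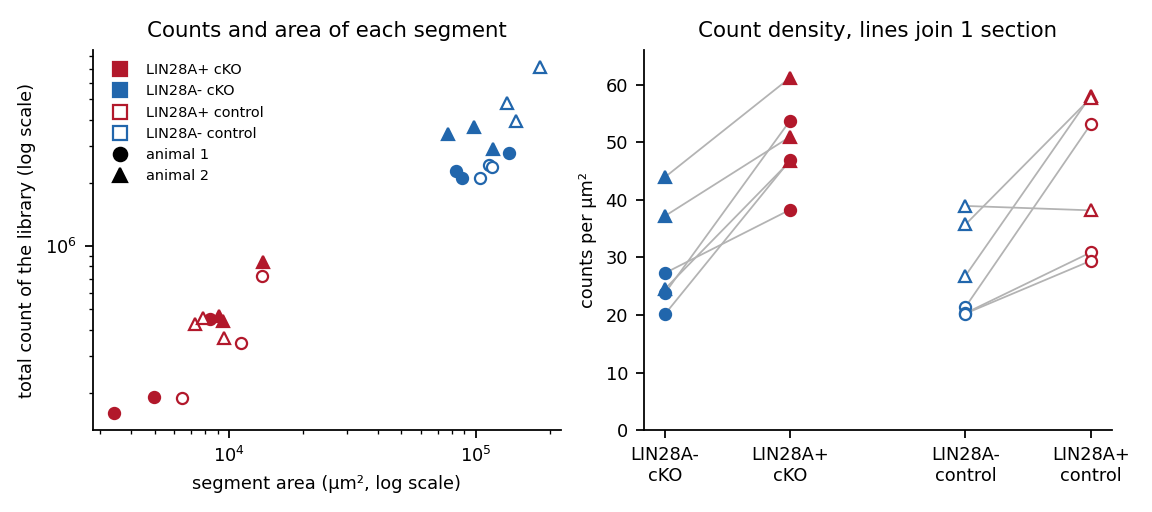
Left, total count of each library against the area of its segment, both on log scales; right, counts per µm² with a line joining the 2 segments of a section. Circles are animal 1 and triangles animal 2 of each genotype, filled for cKO and open for control; all 6 cKO lines rise from LIN28A- to LIN28A+, by 1.37 to 2.33 times.

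Within cKO testes, a limited set of probes differed between segments and most of them were lower in LIN28A+ cells. At an adjusted p under 0.05 (edgeR's quasi-likelihood test, 2 animals, animal as a block), 1413 of 20175 probes were called, which is 7.004% of those tested. Of these, 482 (2.39%) were higher and 931 (4.61%) were lower in LIN28A+ segments. The median log2FC, LIN28A+ over LIN28A-, was 0.55 for the higher and -0.66 for the lower probes, and over all probes it was -0.01. At an absolute log2FC above 1 there were 212 probes (1.05%), 32 of them higher (0.159%) and 180 lower (0.892%), and all were called. Above 1.5 there were 2 higher and 45 lower probes (0.233% together), and above 2 there were 8 probes (0.0397%), all of them lower. Most ratios were small, since 94.1% of probes had an absolute log2FC under 0.5. Which probes lie above the hybridization background was not determined, so a small ratio does not show equal expression.

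These values are relative to the total count of each segment. Scaled by segment area instead, a choice made after seeing the data, the median log2FC over all probes was 0.85, and 17691 probes were called, 99.8% of them higher in LIN28A+. On that scale all 482 higher probes stayed higher. Of the 931 lower probes, 670 had a positive log2FC per area (none of them called higher), 261 stayed negative, and 44 were called lower. Their median log2FC per area was 0.20. All 180 probes with a log2FC under -1 kept a negative value per area, with a median of -0.35. The statements on lower probes below therefore concern their share of the counts of a segment.

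The fit left 1 residual degree of freedom per probe and drew its spread mainly from all probes together (61.3 prior degrees of freedom), so a p reflects the common spread more than that of the probe itself. The number of calls depended on depth and on single animals. DESeq2 called 473 probes, all among the 1413. With all sums thinned to 799761 counts, 806 were called. In a model of all P21 sums, 1135 probes were called with every animal. This fell to 415 when cKO animal 1 was left out and to 704 when cKO animal 2 was left out, where the lone cKO animal is assumed to vary like the controls. Without section 3 of every animal, 700 were called.

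**Figure D2:**
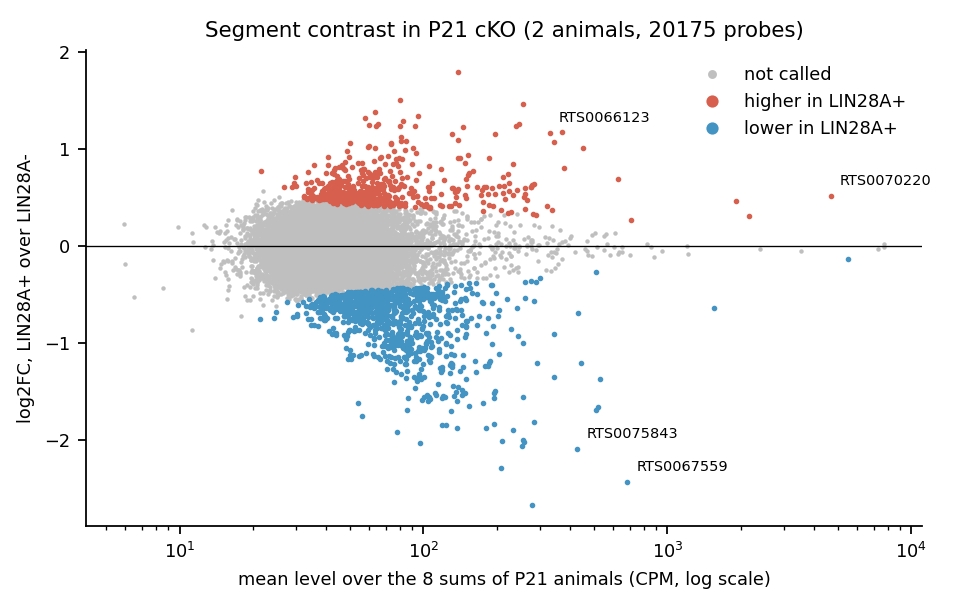
Log2FC of LIN28A+ over LIN28A- segments in P21 cKO against the mean level of each probe in CPM (log scale); each dot is 1 of 20175 probes, coloured when the adjusted p was under 0.05. The 8 probes beyond an absolute log2FC of 2 all lie on the lower side, and the 4 named probes are labelled.

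Called probes were concentrated among those with high counts. In the decile of probes with the highest mean level (67.6 to 7743 CPM), 712 of 2018 were called (35.3%), of which 189 were higher and 523 lower in LIN28A+. In the lowest decile (5.91 to 28.3 CPM), 6 of 2018 were called (0.297%). The top decile held 56.2% of the lower and 39.2% of the higher calls, and 162 of the 180 probes with a log2FC under -1. The median standard error of the log2FC was 0.19 in the lowest and 0.14 in the highest decile, while the standard deviation of the log2FC across probes was 0.20 and 0.52. Called lower probes of high level thus outnumbered higher ones, whereas calls were nearly even in each of the lower deciles up to the sixth, which held 26 higher and 26 lower probes. A count share cannot say whether a probe of low level lies above the hybridization background, since the negative control probes were not identified here.

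The shape of the count distribution differed little between segments at equal depth. After thinning, the 100 highest probes took 8.44 and 8.54% of the counts in LIN28A+ sums of animals 1 and 2, and 8.24 and 8.47% in their LIN28A- sums. Probes above 5 times the median numbered 178 and 143 in LIN28A+ and 191 and 155 in LIN28A- sums of the same animals. Both animals had fewer such probes in LIN28A+ segments, but the animals differed from each other by more than their segments did.

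The direction of the calls was shared by the animals, although its size was not. Of the 482 higher probes, 480 had a positive log2 ratio in both animals and 367 (76.1%) in all 6 sections, whereas 4.19% of all probes were higher in all 6. All 931 lower probes had a negative ratio in both animals, and 795 (85.4%) in all 6 sections, against 7.04% of all probes. The same libraries chose these probes, so the counts describe their agreement and are no separate evidence. Median log2 ratios of the higher probes were 0.70 in animal 1 and 0.49 in animal 2, and those of the lower probes were -0.80 and -0.61. Animal 1 had the larger absolute ratio at 366 of the 482 higher and 687 of the 931 lower probes. Its LIN28A+ sum was also the shallower, with 799761 counts against 1743200 in animal 2. The part of depth in this difference was not tested.

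Section by section, the median log2 ratio of the 482 higher probes was 0.74, 0.67 and 0.65 in sections 1.1 to 1.3 and 0.47, 0.43 and 0.53 in sections 2.1 to 2.3. For the 931 lower probes it was -0.88, -0.92 and -0.71 in animal 1 and -0.59, -0.58 and -0.80 in animal 2. Every section had the sign of the pooled contrast, and at least 92.3% of the higher and 95.6% of the lower probes followed it in each section. The sections of controls, which had no part in the choice of these probes, had medians of 0.35 to 0.77 for the higher and -1.004 to -0.55 for the lower list. All 6 control sections therefore showed the 2 cKO lists on the same sides of 0 as the cKO sections.

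**Figure D3:**
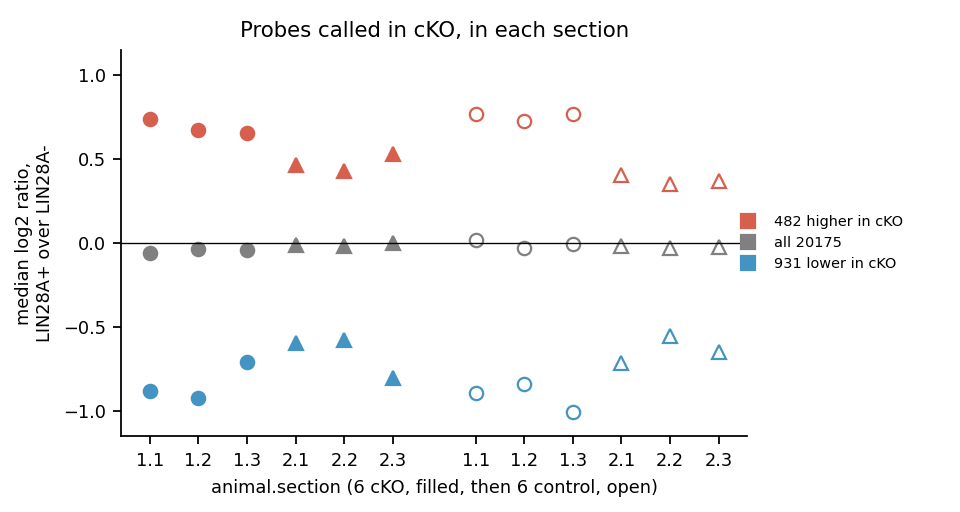
Median log2 ratio of LIN28A+ over LIN28A- in each section for the 482 probes called higher, the 931 called lower and all 20175 probes; filled marks are the 6 cKO sections that chose the lists and open marks the 6 control sections that did not. The medians of the lists lie on opposite sides of 0 in all 12 sections, while that of all probes stays between -0.06 and 0.02.

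Summed over the list, the 931 lower probes took 5.71 to 6.26% of the counts of LIN28A+ cKO libraries (median 6.005%) and 8.75 to 11.9% of those of LIN28A- cKO libraries (median 10.4%). The groups did not overlap. The same cKO libraries chose both lists, so their separation in cKO was favoured by the choice and is no separate evidence. In controls the same probes took 6.27 to 7.58% in LIN28A+ and 9.29 to 14.3% in LIN28A- libraries. The 482 higher probes took 5.39 to 6.67% in LIN28A+ cKO libraries (median 5.89%) and 3.61 to 3.92% in LIN28A- cKO libraries (median 3.82%). In controls they took 4.94 to 7.29% and 3.52 to 4.09%. LIN28A- segments thus held about the same share of higher-list counts in both genotypes, with medians of 3.82 and 3.82%.

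Among the higher probes, RTS0066123 had the smallest p. In the 6 LIN28A+ cKO libraries it was at 565, 633 and 700 CPM (lowest, median, highest) and in the 6 LIN28A- cKO libraries at 236, 287 and 305 CPM. All LIN28A+ libraries lay above all LIN28A- libraries. Over the animals its level was 639 ± 8.40 CPM in LIN28A+ and 277 ± 3.39 CPM in LIN28A- segments (mean ± SD, n = 2), and the log2FC was 1.17 ± 0.09 (SE; edgeR adjusted p = 2.3e-17). In controls it was at 180 to 362 CPM in LIN28A+ and 97.4 to 191 CPM in LIN28A- libraries, with a log2FC of 0.74 ± 0.14. The difference of the contrasts between genotypes was 0.46 ± 0.14 and was not past the adjusted threshold in edgeR. Both control ranges lay lower than the cKO ranges of the same segment. That gap in level between genotypes was not tested.

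RTS0070220 was one of the most abundant probes. It was at 5034, 5434 and 6004 CPM in LIN28A+ cKO libraries and at 3470, 3740 and 3826 CPM in LIN28A- cKO libraries, again without overlap. The animals gave 5458 ± 559 and 3705 ± 110 CPM (n = 2) and a log2FC of 0.52 ± 0.04 (SE; edgeR adjusted p = 4.4e-17), the smallest change among the 4 probes named for cKO. The control log2FC was 0.57 ± 0.05, and the difference between genotypes was -0.02 ± 0.05.

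RTS0067559 led the lower probes. Its level was 115, 167 and 193 CPM in LIN28A+ cKO libraries and 531, 765 and 1255 CPM in LIN28A- cKO libraries. The highest LIN28A+ library was well below the lowest LIN28A- library. Means over animals were 149 ± 10.3 and 807 ± 183 CPM (n = 2), so the spread between animals lay mainly in the LIN28A- segment. Its log2FC was -2.43 ± 0.09 (SE; edgeR adjusted p = 1.2e-30), a 5.39-fold lower share in LIN28A+ segments. In controls, where it was also the lower probe of smallest p, the levels were 194 to 488 and 683 to 2148 CPM and the log2FC was -2.08 ± 0.09. The difference between genotypes was -0.33 ± 0.12, not past the adjusted threshold in edgeR.

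RTS0075843 was lower as well, at 121, 133 and 169 CPM in LIN28A+ and 461, 555 and 736 CPM in LIN28A- cKO libraries. There was no overlap between segments. Its log2FC was -2.10 ± 0.10 in cKO (edgeR adjusted p = 4.1e-26) and -1.91 ± 0.11 in controls. The difference between genotypes was -0.15 ± 0.15. These 4 probes were past the threshold in 18 of 18 alternatives of the analysis, and kept their direction when scaled by area. The alternatives used the libraries that chose the probes, so they show dependence on settings and are no separate evidence. The lack of overlap between segments at these 4 probes was likewise favoured by their choice. The same holds in control libraries for the probes named from controls.

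**Figure D4:**
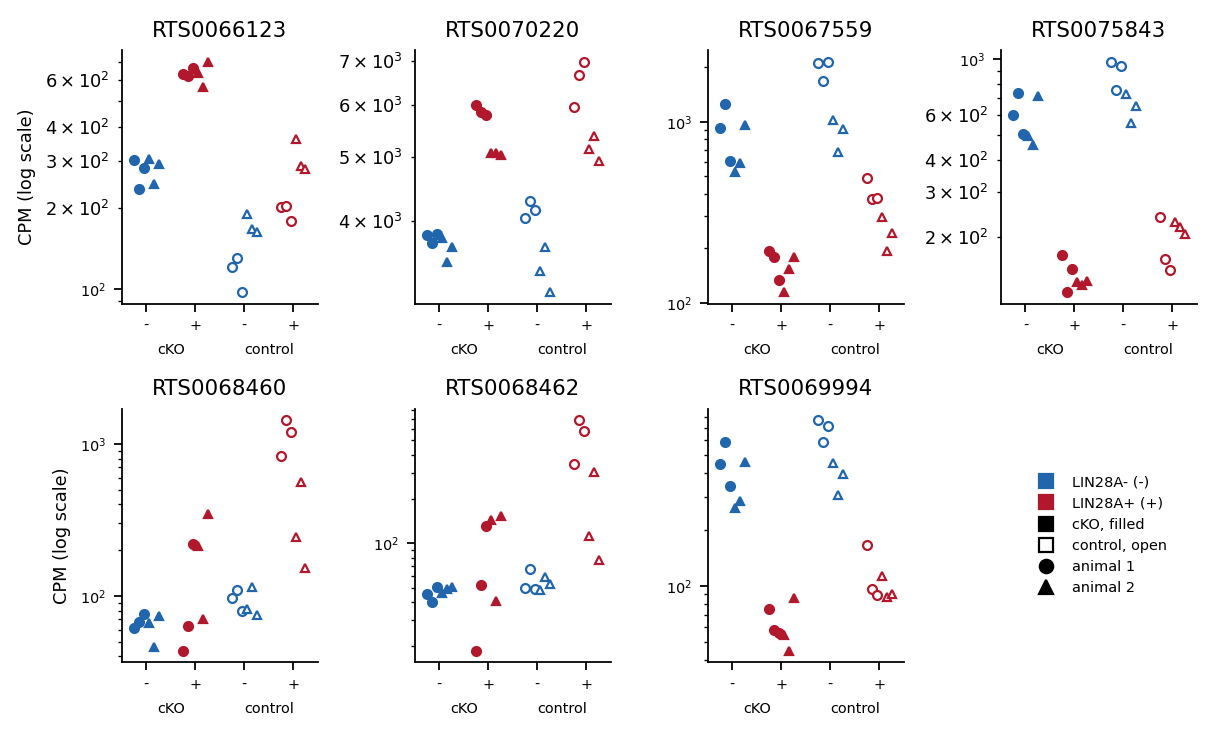
Level in CPM (log scale, a different range in each panel) of the probes named for the cKO and control contrasts, in each of the 24 P21 libraries; blue marks are LIN28A- and red marks LIN28A+ segments, filled for cKO and open for control, circles animal 1 and triangles animal 2. The segments do not overlap in cKO for the 4 probes of the top row and RTS0069994, but do for RTS0068460 and RTS0068462.

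In controls, the same contrast called 1810 of 20175 probes (8.97%), 720 higher (3.57%) and 1090 lower (5.40%) in LIN28A+ segments. Beyond an absolute log2FC of 1 there were 52 higher (0.258%) and 261 lower probes (1.29%), 1.55% together, against 32 and 180 in cKO. DESeq2 called 648 probes, of which 24.1% were higher, against 39.8% in the edgeR test. Without the animal as a block 628 were called, without control animal 1 in the model of all P21 sums 604 (1837 with every animal), and without section 1 of every animal 1034. The standard deviation of the log2FC across probes was 0.31 in controls and 0.27 in cKO. By animal it was 0.40 and 0.29 in controls and 0.38 and 0.27 in cKO, so in this measure the 2 animals of a genotype differed more than the genotypes.

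The segment contrasts of the genotypes, which share no library, were alike in direction. Across the 20175 probes, 63.7% had the same sign in both, and the log2FC values had a Pearson r of 0.69. Probes are not independent and share depth and probe chemistry, so this is a description. Of the 1413 probes called in cKO, 1069 (75.7%) were called in the same direction in controls, where 8.97% of all probes were called, and 1396 (98.8%) had the same sign. Of the 1810 probes called in controls, the same 1069 (59.1%) were called in cKO, where 7.004% of all probes were called, and 1755 (97.0%) had the same sign. No probe was called in opposite directions. Calls were concentrated at high level in both genotypes, with 35.3% of the top decile called in cKO and 36.9% in controls. The shares over all probes, here and for each side below, are not matched for level. The part of level in the overlap was not tested.

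The counts on the higher and the lower side were as follows. Of the 720 probes higher in LIN28A+ of controls, 321 (44.6%) were called higher in cKO, where 2.39% of all probes were, and their median log2FC over all 720 was 0.58 in controls and 0.39 in cKO. Of the 1090 lower probes, 748 (68.6%) were called lower in cKO, where 4.61% of all probes were, with medians of -0.72 and -0.59. Read from the cKO lists, the 482 higher probes had medians of 0.55 in cKO and 0.57 in controls, and the 931 lower probes had medians of -0.66 and -0.75. The 399 higher control probes that were not called in cKO had medians of 0.53 in controls and 0.25 in cKO, and 359 of them kept their sign. Of the 342 lower control probes not called in cKO, 327 kept their sign, with medians of -0.59 and -0.30. Each list was chosen by its calls in 1 genotype, and the probes not called in cKO also by missing the threshold there. Such a choice favours a larger median in the genotype that made the list, so the sizes are not compared between genotypes. Whether the sides differ in retention was not tested. With both contrasts taken from the model of all P21 sums, the share of control calls also called in cKO was 51.2% with every animal. In that model it was 20.6% when cKO animal 1 was left out, 32.6% when cKO animal 2 was left out, 85.6% for control animal 1 and 57.6% for control animal 2, where the control list itself changes too.

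The difference itself was tested as the interaction of genotype and segment in the 8 sums of P21 animals. At an adjusted p under 0.05, edgeR called 0 of 20175 probes (0.00%) and DESeq2 called 0. At an unadjusted p under 0.05 there were 786 probes (3.90%) in edgeR and 26 in DESeq2. Of the 786, 470 (2.33%) had a larger log2FC in cKO and 316 (1.57%) a smaller one. Of the probes called in controls, 219 (12.1%) had an unadjusted interaction p under 0.05, and of those called in cKO 90 (6.37%). The sums that chose these lists also enter the interaction, which can raise both shares, so neither is set against the 3.90% of all probes. The difference exceeded an absolute log2 of 1 at 5 probes (0.0248%), 1 of them larger (0.00496%) and 4 smaller (0.0198%) in cKO. Without control animal 2 the test called 13 probes, without cKO animal 2 it called 4, without section 3 of every animal 2 and without cKO animal 1 it called 1. Where a fit left 1 animal in a genotype, that animal was assumed to vary like those of the other genotype. No probe can therefore be listed as lost or gained in cKO by this test with all animals. With 2 animals per genotype the median standard error of the difference was 0.23 on the log2 scale.

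**Figure D5:**
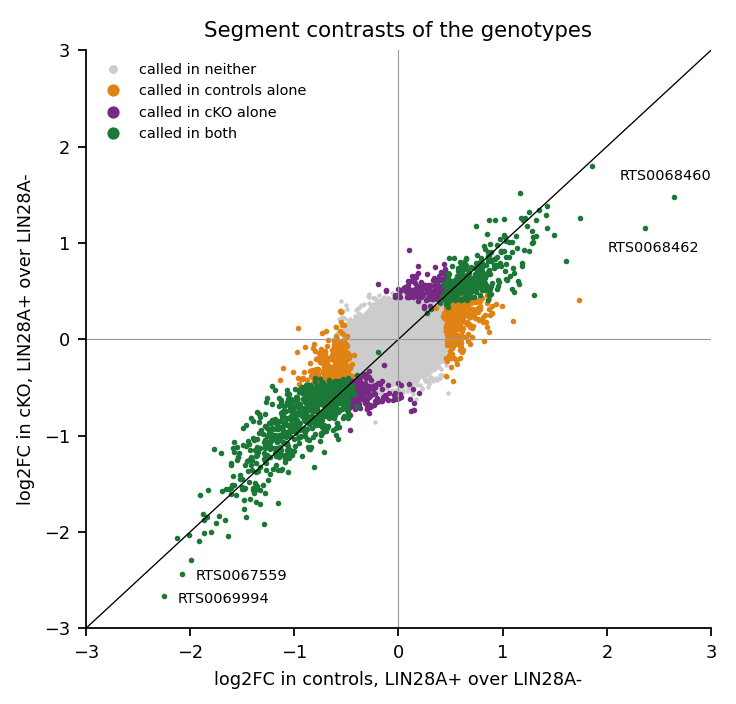
Log2FC of LIN28A+ over LIN28A- in P21 cKO against that in P21 controls; each dot is a probe, coloured by where its adjusted p was under 0.05, and the black line marks equal values. The 1069 probes called in both lie along the line on both sides of 0, and the labelled RTS0068460 and RTS0068462 lie below it on the right.

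RTS0068460 and RTS0068462 were the higher probes of smallest p in controls. In LIN28A+ control libraries RTS0068460 was at 835, 1435 and 1199 CPM in sections 1.1 to 1.3 and at 244, 563 and 152 CPM in sections 2.1 to 2.3, against 74.5 to 114 CPM in LIN28A- control libraries. Every LIN28A+ control library lay above every LIN28A- one, but animal 1 exceeded animal 2 in all sections. In LIN28A+ cKO libraries RTS0068460 was at 43.7, 63.0 and 220 CPM in sections 1.1 to 1.3 and at 211, 70.9 and 343 CPM in sections 2.1 to 2.3, against 46.3 to 75.8 CPM in LIN28A- cKO libraries. The LIN28A+ values of sections 1.1, 1.2 and 2.2 lay within or below the LIN28A- range, and those of the other 3 sections lay above it. The log2FC was 2.64 ± 0.13 in controls (edgeR adjusted p = 3.9e-94) and 1.47 ± 0.13 in cKO (edgeR adjusted p = 1.8e-14), where it was higher in 4 of 6 sections. The difference was -1.16 ± 0.27 (unadjusted p = 0.000159, adjusted p = 1.00 in edgeR). The control fit drew its spread wholly from all probes together, so the gap between the 2 control animals, with log2 ratios of 3.42 and 1.80, does not enter that SE or p. DESeq2 gave 2.63 ± 0.73 (adjusted p = 0.00464), and the control log2FC was 1.81 without control animal 1 and 3.38 without control animal 2.

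RTS0068462 followed the same sections. In LIN28A+ cKO libraries it was at 18.7, 52.5 and 131 CPM in animal 1 and at 145, 40.8 and 155 CPM in animal 2, against 40.1 to 50.6 CPM in LIN28A- cKO libraries. The 2 shallowest LIN28A+ libraries, 1.1 and 1.2, held only 3 and 10 counts of it. Its log2FC was 2.37 ± 0.15 in controls and 1.16 ± 0.13 in cKO. The control value was 2.34 ± 0.67 in DESeq2, 1.60 without control animal 1 and 3.01 without control animal 2. The difference between genotypes was -1.20 ± 0.26 (unadjusted p = 7.2e-05, adjusted p = 0.804 in edgeR). This difference was -0.45 without control animal 1, -1.86 without control animal 2 and -0.63 without section 2 of every animal (adjusted p = 1.00 in edgeR for the last). It passed the threshold in 4 of 15 alternatives, some of them fits that left 1 animal in a genotype. Its size rests on control animal 1.

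On the lower side of controls, RTS0069994 was at 87.5, 93.2 and 166 CPM in LIN28A+ and 305, 520 and 769 CPM in LIN28A- control libraries. In cKO it was at 45.1, 56.7 and 86.4 CPM and at 260, 395 and 585 CPM, and neither genotype showed overlap between segments. Its log2FC was -2.25 ± 0.13 in controls and -2.67 ± 0.13 in cKO, the lowest of all probes there. The difference between genotypes was -0.39 ± 0.18, not past the adjusted threshold in edgeR.

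The other probes named for the interaction had few counts in LIN28A+ libraries. RTS0068784 was at 15.8, 35.3 and 43.7 CPM in LIN28A+ cKO libraries, from 3 to 36 counts, and at 48.6, 68.5 and 150 CPM in LIN28A+ control libraries. LIN28A- libraries held 19.4 to 30.8 CPM over both genotypes. The difference of its contrasts was -1.31 ± 0.29 (adjusted p = 0.804 in edgeR), and it was -0.59 without control animal 1 and -1.94 without control animal 2. RTS0064997 was at 15.8 to 62.4 CPM in LIN28A+ cKO and 15.2 to 28.7 CPM in LIN28A+ control libraries, with a difference of 1.11 ± 0.27 (adjusted p = 1.00 in edgeR). Its LIN28A+ control range lay below the LIN28A- control range of 32.6 to 41.7 CPM, whereas the cKO ranges overlapped. RTS0061784, with a difference of 0.98 ± 0.25 (adjusted p = 1.00 in edgeR), had as little as 1 count in a LIN28A+ control library.

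Regions drawn around cKO tubules with interrupted maturation of spermatocytes or spermatids (Diff tubules) gave a further look at the contrast, since 4 of them had both segments. Spg-only tubules were those where spermatogonia alone were left. The labels do not tie these regions to animals, so they may come from the same testes and are described without a test. Of the 482 higher probes, 408 (84.6%) had a positive log2 ratio in the sum of the 4 regions, against 48.7% of all probes, and the median was 0.31. Of the 931 lower probes, 806 (86.6%) had a negative ratio, against 51.3% of all probes, and the median was -0.35. The random regions chose these probes and the Diff regions did not, so the sizes of the medians are not compared. In each of the 4 regions taken singly, 135 of the 482 higher and 237 of the 931 lower probes kept their sign throughout. In the sum, the direction held for 30 of the 32 higher and 177 of the 180 lower probes beyond a log2FC of 1. In all 4 regions it held for 18 of those 32 and 72 of those 180. The share of all probes with 1 sign in all 4 regions was not determined. The counts over all 4 regions are therefore not read as strong or weak agreement. RTS0066123, RTS0070220 and RTS0068462 were higher in 4 of 4 Diff regions, and RTS0069994 was lower in 4 of 4. RTS0067559 and RTS0075843 were lower in 3 of 4. RTS0068460 was higher in 3 of 4, but its log2 ratio in the sum was -0.23. The LIN28A- library of Diff region 4 had RTS0067559 at 82.9 CPM, where the other 3 regions had 355 to 882 CPM. The lower list took 6.25 to 9.68% of LIN28A- and 5.84 to 6.19% of LIN28A+ counts in Diff tubules. In Diff region 4 the lower list took 6.25% of LIN28A- and 6.19% of LIN28A+ counts. In the 3 LIN28A+ libraries of Spg-only tubules it took 5.59 to 5.98%, next to the 5.71 to 6.26% of the LIN28A+ random regions, while the higher list took 4.61 to 4.97% there and 4.81 to 5.38% in LIN28A+ libraries of Diff tubules, both below the 5.39 to 6.67% of the random regions that chose the list.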

How the data were processed

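GeoMx WTA libraries of FFPE testis sections were used. The authors assigned reads to probes by barcode and removed duplicates by molecular identifier with the GeoMx NGS Pipeline (2.3.3.10), and deposited whole-number counts per probe without normalization or filters. The build, aligner and test behind the deposited counts are not given in the sources used here. Library labels gave the groups, and segment areas and readout tags came from the deposited configuration and acquisition files, other values that carry no unit name there. The members and lists were chosen with earlier results of these data known.

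Counts of 3 sections were summed per animal and segment. edgeR 4.0.16 (R 4.3.3) with TMM factors, filterByExpr, which removed 0 of 20175 probes, a block for the animal and the quasi-likelihood test was used, with Benjamini-Hochberg adjustment over all probes and a threshold of 0.05. The controls and the interaction were fitted likewise, the latter on 8 sums. The block rests on both segments coming from the same animal, since they lie in the same section. As a check, the deviations of the animals from their mean correlated between segments with r = 0.14 in cKO and 0.44 in controls. Log2 ratios per animal or section used TMM-scaled CPM with a pseudocount of 1. The chi-square between sections of an animal, divided by its degrees of freedom, was 1.02 to 1.11 in LIN28A+ and 1.28 to 2.10 in LIN28A- cKO libraries, so some LIN28A+ pairs were close to sampling noise. Probes were named by the smallest p, 2 per direction and comparison, for cKO among probes with 1 sign in both animals. DESeq2 1.42.0, limma-voom (limma 3.58.1) or edgeR on single libraries, other scalings and filters, thinning and leaving out animals or sections were alternatives. Python 3.11.15, pandas 2.3.3, numpy 2.4.6 and matplotlib 3.10.9 were used. P6 libraries were not used.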

Additional observations from a re-analysis of the deposited data

Results flagged for a closer look

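Of 64 groups of 6 values tested for a value far from the rest by Dixon's criterion, 2 were marked, and chance alone marks about 1 group in 20. The LIN28A- library of cKO section 2.3 had 16.9 reads per counted molecule, where the next library of its group had 14.6. The probe RTS0069994 stood at 166 CPM in the LIN28A+ library of control section 1.1, where the next had 112 CPM. It was lower in LIN28A+ than in LIN28A- segments in that section too.

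RTS0061784 had a positive segment difference in both cKO animals and a negative one in both control animals. The difference of the contrasts was 0.98 on the log2 scale, with an adjusted p of 1.00 in edgeR's test of the interaction, so it was not past the threshold. LIN28A+ libraries held 4 to 39 counts of it in cKO and 1 to 13 in controls.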

How the results depend on the processing

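With the replicate block for the animal, cKO gave 1413 calls, and without it 1114, controls 1810 and 628, and the interaction 0 and 0. The model of all P21 sums gave 1135 calls in cKO, 1837 in controls and a share of control calls also called in cKO of 51.2%. In that model, leaving out single animals gave 415 to 1419 calls in cKO (415 and 704 without a cKO animal), 604 to 1881 in controls, 0 to 13 in the interaction (1 and 4 without a cKO animal) and 20.6 to 85.6% for the share (20.6 and 32.6% without a cKO animal). Leaving out sections of 1 number gave 700 to 1333 calls in cKO, 1034 to 1413 in controls and 0 to 2 in the interaction. DESeq2 gave 473 calls in cKO and 648 in controls, thinned sums 806 and 933, and scaling by area, chosen after seeing the data, 17691 and 15180, with medians over all probes of 0.85 and 0.79. DESeq2 size factors in edgeR gave 3 calls in the interaction. The share of 59.1% from the fits per genotype became 33.4% for a control list at an unadjusted p under 0.05. Both stand beside 7.004% of all probes called in cKO. By area the share was 94.8%, but there 17691 of all 20175 probes were called in cKO. Fewer counts or fewer animals enter the thinned and reduced fits by construction; for the other settings the cause was not tested. All probes named for cKO or controls kept their direction and their side of the threshold in 18 of 18 alternatives each. They had been chosen by the smallest p in the same libraries, so this is no separate evidence. In the interaction RTS0068462 passed the threshold in 4 and RTS0068784 in 3 of 15, some of them fits that left 1 animal in a genotype. The depth of LIN28A+ sums limits what a contrast can show at probes of low level.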
